A study of Mus musculus with 6 samples.

Results

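The placental cathepsins are 8 cysteine proteases of the mouse, Ctsj, Ctsq, Ctsr, Cts6, Cts8, Cts7, Ctsm and Cts3, whose genes follow each other in that order on chromosome 13. They were taken as all probe sets whose annotation names one of these genes, also where a probe set names several. This gave 8 probe sets for 8 of 21334 annotated genes. Ctsj, Ctsq, Ctsr, Cts6, Cts8 and Cts7 each have a probe set of their own, while Ctsm and Cts3 share 2 probe sets and have none that names only one of them. The family was selected on the measured EVI1 minus EGFP differences of these arrays, in which Ctsj and Ctsr stood out. The differences of its members are therefore given as a description, with no test.

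Cathepsins of the papain family are made with a propeptide that keeps them inactive until they reach the acid of the lysosome, where most of them break down proteins. Rodents carry a family of such genes beside each other that arose from a cathepsin L-like ancestor by duplication, is known mainly from trophoblast cells of the placenta and has no direct counterpart in humans. Blood progenitors are known for cathepsins of other loci, such as cathepsin G of neutrophil granules and the lysosomal cathepsins B, L and S.

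The 6 arrays measured Lin- hematopoietic cells, depleted of cells with mature lineage markers, from Rosa26rtTA mice of the C57BL6 strain. In 3 arrays, labelled EVI1, the cells carried the lentiviral vector pRRL.PPT.Tet.Evi1.IRES.EGFP.pre, which encodes the zinc finger transcription factor EVI1 and the green fluorescent protein EGFP. In the other 3, labelled EGFP, they carried pRRL.PPT.Tet.EGFP.pre, which encodes EGFP alone. All cells had the doxycycline-dependent activator rtTA at the Rosa26 locus, were grown with 50 ng/ml each of mSCF, hFlt-3L and hIL-11 and 20 ng/ml mIL-3, and were induced with 1 µg/ml doxycycline. RNA came from cells sorted for EGFP. The time after induction is given both as 20 h and as 24 h. The question was which transcripts differ after EVI1 is switched on. The labels do not say whether the replicates are separate mice, cultures or transductions, nor how many mice were used, so errors measure the spread between these arrays only.

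Values are log2 intensities, with array medians of 7.24 to 7.31. Arrays correlated across probe sets at 0.958 to 0.984 within groups and 0.939 to 0.963 between them. Of 34760 probe sets, 2954 (8.50%) passed an adjusted p of 0.05 between the groups, 1431 (4.12%) higher and 1523 (4.38%) lower in the arrays labelled EVI1 (limma). With 1 probe set per gene the share was 18.2%, 9.06% higher and 9.18% lower. All 8 markers of hematopoietic progenitors, Ptprc, Kit, Cd34, Spi1, Runx1, Myb, Gata2 and Mpo, had means above the 95th percentile of olfactory receptor genes, which blood cells hardly express, in both groups (6.98 in EVI1 arrays, 6.95 in EGFP arrays). Mecom, which encodes EVI1, did not exceed its control level in the EVI1 arrays. The brighter of its 2 probe sets averaged 6.32 ± 0.16 in the EVI1 arrays and 6.92 ± 0.57 in the EGFP arrays (SD, n = 3 each), a log2 difference of -0.60 ± 0.28 (SE) with an exact two-sided permutation p of 0.2, where 0.1 is the smallest possible. The other probe set averaged 6.35 in the EVI1 arrays and 6.58 in the EGFP arrays and differed by -0.23 ± 0.11 (exact permutation p = 0.1). In each group, the means of both probe sets lay below the 95th percentile of olfactory receptor genes. No source used here says whether these probes can read the vector's transcript, and group names follow the labels throughout.

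The starts of the 8 genes were compared first, since the members are neighbours on one strand and differed widely on the arrays. The windows shown reach from 250 bases before to 50 after the RefSeq start of each gene (GRCm38.p6), and all 8 members had one. They belong to the 4 members that were higher on every EVI1 array than on every EGFP array, Ctsj (chr13:61005876-61006175), Ctsr (chr13:61164139-61164438), Cts6 (chr13:61203343-61203642) and Cts8 (chr13:61255299-61255598), and to Ctsq (chr13:61040548-61040847), which lies between Ctsj and Ctsr and was not. All lie on the minus strand and are written 5′ to 3′ in the direction of transcription. Capitals mark the best match without gaps to the 2 longest runs that the windows of Ctsj, Ctsr and Cts6 share.
Ctsj: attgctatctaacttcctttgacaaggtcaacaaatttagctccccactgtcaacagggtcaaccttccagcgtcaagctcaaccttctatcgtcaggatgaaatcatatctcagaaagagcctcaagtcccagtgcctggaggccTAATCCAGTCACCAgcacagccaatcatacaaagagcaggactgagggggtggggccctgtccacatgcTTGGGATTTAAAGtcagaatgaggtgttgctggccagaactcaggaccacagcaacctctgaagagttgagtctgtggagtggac
Ctsr: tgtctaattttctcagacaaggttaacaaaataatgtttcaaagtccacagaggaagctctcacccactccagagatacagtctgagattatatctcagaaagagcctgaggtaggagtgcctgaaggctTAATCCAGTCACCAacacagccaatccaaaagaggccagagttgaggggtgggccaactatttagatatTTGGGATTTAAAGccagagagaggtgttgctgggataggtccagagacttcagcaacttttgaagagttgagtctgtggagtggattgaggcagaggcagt
Cts6: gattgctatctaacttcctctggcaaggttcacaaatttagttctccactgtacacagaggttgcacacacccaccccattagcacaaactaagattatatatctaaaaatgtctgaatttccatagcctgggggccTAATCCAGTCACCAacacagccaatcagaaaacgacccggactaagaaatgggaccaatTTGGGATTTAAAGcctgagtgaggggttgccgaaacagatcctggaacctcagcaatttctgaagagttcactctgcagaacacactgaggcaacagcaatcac
Cts8: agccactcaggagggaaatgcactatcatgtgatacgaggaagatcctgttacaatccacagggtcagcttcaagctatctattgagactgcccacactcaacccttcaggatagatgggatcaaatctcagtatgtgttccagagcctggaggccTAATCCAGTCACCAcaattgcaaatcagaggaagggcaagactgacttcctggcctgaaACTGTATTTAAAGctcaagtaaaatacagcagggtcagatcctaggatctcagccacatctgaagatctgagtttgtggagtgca
Ctsq: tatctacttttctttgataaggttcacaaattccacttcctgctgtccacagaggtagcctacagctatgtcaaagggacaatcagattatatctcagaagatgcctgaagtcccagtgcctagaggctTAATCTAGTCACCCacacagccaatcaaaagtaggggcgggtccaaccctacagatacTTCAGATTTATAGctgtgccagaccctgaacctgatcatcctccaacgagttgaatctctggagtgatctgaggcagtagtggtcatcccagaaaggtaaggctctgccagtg

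Ctsj, cathepsin J, had the largest difference of all 34760 probe sets. Its log2 intensity was 11.29, 11.33 and 11.90 in EVI1 arrays 1, 2 and 3, against 5.96, 5.73 and 5.86 in EGFP arrays 1, 2 and 3. The means were 11.51 ± 0.34 and 5.85 ± 0.11 (SD, n = 3 each), a log2 difference of 5.66 ± 0.19 (SE), or 50.5-fold. No value of one group came near the other. The EGFP mean lay at the 64.1st percentile of 1035 olfactory receptor probe sets, while the EVI1 mean lay above all of them and at the 96.7th percentile of all probe sets on the array. Because the EGFP level cannot be told from background, the size of the fold is uncertain. In RNA of many cells, fewer cells with a transcript and less of it per cell cannot be told apart.

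Ctsr, cathepsin R, ranked 3rd of all probe sets by its difference. It read 10.59, 10.44 and 11.05 in EVI1 arrays 1, 2 and 3, against 5.96, 5.68 and 6.08 in EGFP arrays 1, 2 and 3. Its means were 10.69 ± 0.32 and 5.91 ± 0.20 (SD, n = 3 each), a log2 difference of 4.79 ± 0.19 (SE), or 27.6-fold. As for Ctsj, the EVI1 mean was above all olfactory receptor probe sets and the EGFP mean was within them, at the 66.9th percentile.

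Cts6, cathepsin 6, differed in the same direction but had a dim mean in both groups. It read 7.06, 6.99 and 6.81 in the EVI1 arrays, against 5.20, 5.43 and 5.10 in the EGFP arrays. The difference was 1.71 ± 0.13 (log2, SE), or 3.28-fold, and ranked 251st of all probe sets. The EVI1 mean of 6.96 ± 0.13 (SD) stood at the 94.8th percentile of olfactory receptor probe sets, and the EGFP mean of 5.24 ± 0.17 (SD) at the 40.6th. The groups did not overlap, yet only Ctsj and Ctsr had an EVI1 mean above the level used as background, the 95th percentile of olfactory receptor probe sets, and no member had such an EGFP mean.

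Cts8, cathepsin 8, was dim on every array. It read 4.96, 4.85 and 4.83 in EVI1 arrays and 4.48, 4.55 and 4.45 in EGFP arrays, with means at the 30.7th and 19.4th percentile of olfactory receptor probe sets. The groups did not overlap, and the log2 difference was 0.39 ± 0.10 (SE). After a further quantile normalisation of the arrays it was 0.46.

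Ctsq, cathepsin Q, a marker of trophoblast giant cells that line the maternal blood sinusoids of the placenta, stayed dim although it lies between Ctsj and Ctsr. It read 4.57, 4.91 and 5.0 in EVI1 arrays, against 5.02, 5.23 and 5.07 in EGFP arrays, so that each EVI1 value was below each EGFP value. The log2 difference was -0.28 ± 0.15 (SE), of opposite sign to that of its neighbours. Both means lay in the lower part of the olfactory receptor probe sets, at the 30.0th percentile for EVI1 and the 35.7th for EGFP.

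Cts7, cathepsin 7, overlapped between the groups. It read 5.40, 5.18 and 5.32 in EVI1 arrays and 5.27, 5.46 and 5.91 in EGFP arrays, a difference of -0.25 ± 0.18 (log2, SE). The value of EGFP replicate 3 was the highest, and without that array the difference was -0.07. The probe sets shared by Ctsm and Cts3, cathepsins M and 3, overlapped as well. One read 5.40, 5.34 and 5.11 in EVI1 arrays, against 5.37, 5.25 and 5.38 in EGFP arrays (log2 difference -0.05 ± 0.12, SE), and the other read 5.22, 5.37 and 5.41, against 5.61, 5.02 and 5.28 (0.03 ± 0.17, SE). A signal from one of these genes could not be told from one of the other.

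Over the family, 4 of 8 probe sets were higher on every EVI1 array than on every EGFP array, 1 was lower and 3 overlapped. Over the whole table the groups did not overlap for 26.8% of probe sets, 12.7% with EVI1 higher and 14.1% with EVI1 lower. Since the family was chosen for this contrast, nothing is read from the comparison. The plot of single arrays shows a bright pair, Ctsj and Ctsr, then Cts6, dim in both groups but with a larger difference than the rest, and dim probe sets with small differences.

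**Figure D1:**
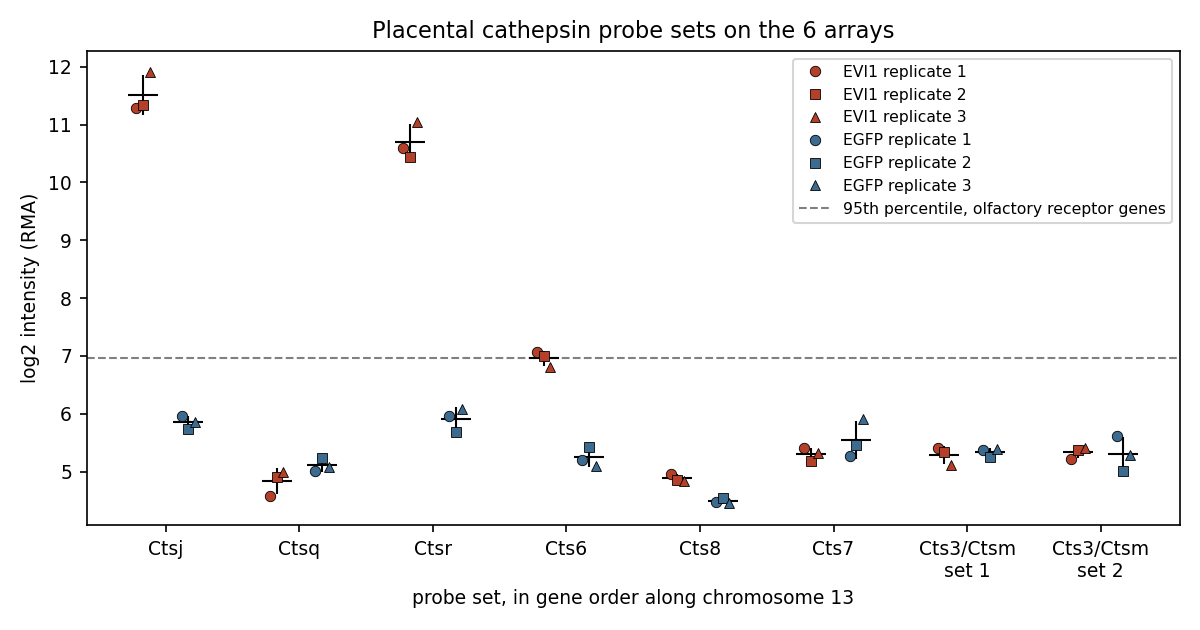
Log2 intensity (RMA) of the 8 placental cathepsin probe sets on each array, EVI1 in red and EGFP in blue, with a symbol for each replicate number, the group mean (bar) and the SD (line, n = 3); the dashed line is the 95th percentile of olfactory receptor genes, averaged over both groups. Ctsj at 11.51 and Ctsr at 10.69 stand far above the line in EVI1 arrays, Cts6 at 6.96 lies at it, and every EGFP value lies below it.

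The bright pair shared its highest EVI1 array and its lowest EGFP array. Among EVI1 arrays, Ctsj deviated from its group mean by -0.22, -0.18 and 0.40 in replicates 1, 2 and 3, and Ctsr by -0.10, -0.26 and 0.36, so that replicate 3 was the highest for both. Cts6 deviated by 0.11, 0.04 and -0.15, with replicate 3 the lowest. Among EGFP arrays, replicate 2 was the lowest for Ctsj and Ctsr (-0.12 and -0.23) and the highest for Cts6 (0.19). The EGFP readings of these genes cannot be told from background, so nothing is read from their order. Whether Ctsj and Ctsr varied together was not tested. Same-numbered arrays differed by 5.33, 5.60 and 6.05 for Ctsj, by 4.63, 4.76 and 4.97 for Ctsr, and by 1.86, 1.56 and 1.71 for Cts6 (log2). Whether probes of one member also read another was not tested, and probe sequences were not used here.

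Genes outside the family were searched for profiles like those of Ctsj and Ctsr, with the members left out. Likeness was measured by the Euclidean distance over 6 arrays between values taken relative to the EGFP mean of each probe set. Such values keep the group difference, so the distance largely follows its size, on which the family was chosen. The genes found had log2 differences of 4.24 (Pdzk1ip1) to 4.98 (Rsad2), and their nearness is a description. Nearest to Ctsj among them were Rsad2, which encodes the antiviral protein viperin (distance 1.21), Ldhb, a lactate dehydrogenase subunit (1.80), the amino acid transporter Slc6a20a (2.19), Spic, a transcription factor of red pulp macrophages (2.29), and the chitinase-like Chil1 (2.35). Nearest to Ctsr among them were Rsad2 (0.46), Ldhb (0.69), Slc6a20a (0.82), the membrane protein gene Pdzk1ip1 (1.04) and Chil1 (1.18). Ctsj and Ctsr were 1.53 apart. Ctsr was thus nearer to Ctsj than each of these genes except Rsad2, while all 5 genes named for Ctsr were nearer to it than Ctsj was.

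Of 5 cathepsin-related genes that lie before Ctsj in the cluster, none rose and 1 fell (limma), where 8.50% of all probe sets passed. Of the 5, 2 had an unadjusted p under 0.05, both lower, but the share of all probe sets that reached it was not computed. Ctla2a and Ctla2b encode small proteins that resemble the cathepsin propeptide, and the first is known to inhibit cathepsin L-like enzymes. Ctla2a read 8.62, 8.08 and 7.34 in EVI1 arrays, against 10.24, 9.996 and 9.40 in EGFP arrays, and fell by 1.87 ± 0.36 on the log2 scale (SE), 3.65-fold lower (limma adjusted p = 0.0290). The groups did not overlap, and EVI1 replicate 3 was the lowest array. The call held with a replicate block (adjusted p = 0.0131). It was lost without EVI1 replicate 2 or 3 or without any single EGFP array, with adjusted p up to 0.0895, and adjusted p ran from 0.00550 to 0.0895 over all alternatives.

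Ctla2b read 7.13, 6.73 and 6.76 in EVI1 arrays, against 8.13, 8.17 and 7.30 in EGFP arrays. Its difference of -0.998 ± 0.26 (log2, SE) did not pass (limma adjusted p = 0.0712), although the groups did not overlap. It passed without EGFP replicate 3, the lowest EGFP array (-1.28, adjusted p = 0.0272), with 1 probe set per gene (0.0214), and after dim probe sets below the 25th percentile (0.0470) or the median (0.0339) were removed. Ctla2a and Ctla2b are close paralogs, and whether their probes separate them was not tested. Tpbpa and Tpbpb, trophoblast genes that also derive from a cathepsin propeptide, were dim and did not pass (log2 differences -0.19 ± 0.11 and -0.29 ± 0.16, SE). The cathepsin L-like gene Ctsll3 did not pass either (0.15 ± 0.10, SE).

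Flanking genes differed by less than Cts6, in both directions. Of the 15 protein-coding genes nearest on each side, 18 of 30 were measured, 13 of them before Ctsj and 5 after Cts3. Zfp935, a zinc finger gene (log2 0.94 ± 0.18, SE), Tut7, which adds uridines to RNA (0.63 ± 0.14), and Fbp1, a gluconeogenesis enzyme (0.55 ± 0.10), rose. Golm1, a Golgi membrane protein, fell by 0.64 ± 0.13. Both means of Fbp1, 6.46 in EVI1 arrays and 5.92 in EGFP arrays, lay below the level used as background. Those of Zfp935, Tut7 and Golm1 lay above it in both groups. The other 14 did not pass, where 8.50% of all probe sets passed, and 18.2% with 1 probe set per gene. The median was 0.20, against -0.01 over all probe sets. With the cathepsin-related genes left out, the nearest measured gene before Ctsj was 4930486L24Rik (-0.66 ± 0.19, adjusted p = 0.100), and the nearest after Cts3 was Zfp935. The calls of Zfp935, Tut7, Fbp1 and Golm1 were lost without EVI1 replicate 1, 2 or 3 and without EGFP replicate 3. That of Golm1 was also lost with a replicate block (adjusted p = 0.0749).

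**Figure D2:**
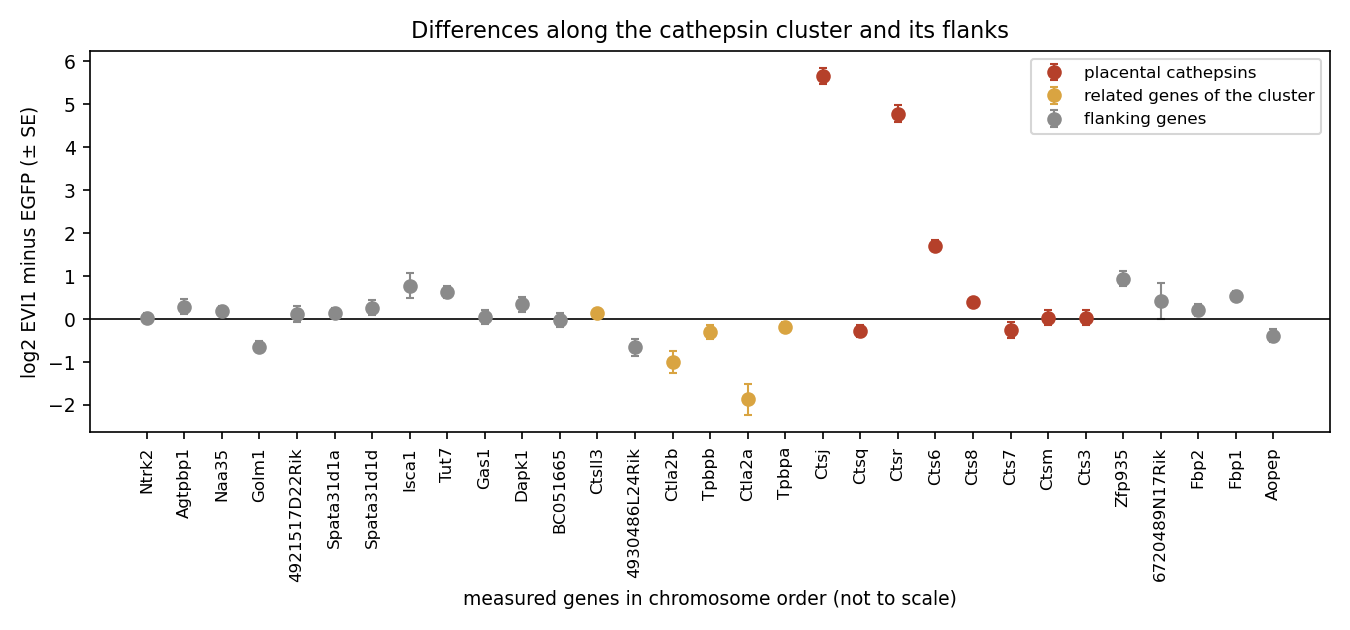
Log2 difference EVI1 minus EGFP with its SE (n = 3 arrays each) for the measured genes of the cluster and its flanks, in chromosome order and not to scale; Ctsm and Cts3 show the brighter of their shared probe sets. Ctsj (5.66), Ctsr (4.79) and Cts6 (1.71) stand above all flanking genes, Ctsq between them lies at -0.28, and Ctla2a (-1.87) is the lowest.

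The windows of Ctsj, Ctsr and Cts6 were 70.7% to 73.9% identical to each other over aligned bases. The median was 73.2% among these 3, 66.9% between them and the other 5 members, and 61.8% among the other 5. These 3 were set apart after their differences on the arrays were known, so the order of the medians is a description. Cts8, also higher on every EVI1 array, was counted with the other 5 and had 68.4%, 64.2% and 62.0% with Ctsj, Ctsr and Cts6. Single pairs departed from the order of the medians. The Ctsq window was 74.6% identical to that of Ctsj, more than any other member's, and Cts7, which overlapped between groups, had 72.2% with Ctsr. Ctsm and Cts3, which share their probe sets, had 92.9%. Over all 28 pairs of members the median was 66.1%, against 54.8% for 144 pairs of a member with one of the 18 measured flanking genes and 56.1% for 8 pairs with Ctsl.

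**Figure D3:**
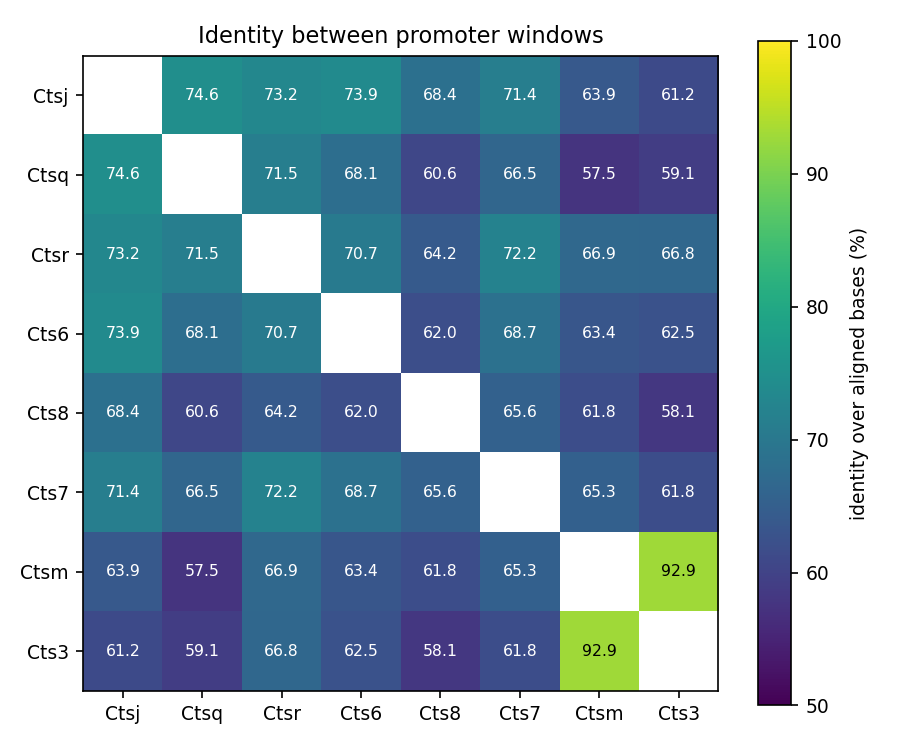
Identity in percent of aligned bases between the promoter windows (250 bases before to 50 after the gene start) of the 8 placental cathepsins, in gene order on both axes. Ctsm and Cts3 reach 92.9%, Ctsj shares between 73.2% and 74.6% with Ctsq, Ctsr and Cts6, and the lowest value is 57.5% for Ctsq and Ctsm.

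The run TAATCCAGTCACCA was found in the windows of Ctsj, Ctsr, Cts6 and Cts8 and in no other of 32851 windows of mouse genes on either strand (0.0122%). It began 104, 120, 113 and 94 bases before their starts. These are the 4 members that were higher on every EVI1 array. The run TTGGGATTTAAAG was found in Ctsj, Ctsr and Cts6 only (0.00913% of windows), beginning 35, 51 and 54 bases before the start. The Ctsq window differed from the first run at 2 positions and from the second at 3, and the Cts7 window at 3 and 2. The windows of Ctsm and Cts3 differed from the first at 4 each and from the second at 3 and 2. Cts8, although higher on every EVI1 array, differed from the second run at 4 positions, more than any of these. Both runs were picked as the longest that these 3 windows share, after the differences were known, so the match between sequence and difference is a description.

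Letters of known promoter elements were looked for on both strands of the same windows. CCAAT, the letters of the CCAAT box, occurred in all members except Cts8 and in 37.4% of all windows. In Ctsj, Ctsr, Cts6 and Ctsq one lay within the shared letters CACAGCCAATC, which 0.122% of windows hold, and Cts6 had another 59 bases before its start. TTTAAA, an AT-rich run inside the second shared run, occurred in all members except Ctsq and in 13.2% of all windows, and TATAAA in Ctsq, Ctsm and Cts3 and in 13.6%. The letters GACAAGATA, known from binding studies of EVI1, were in no member's window and in 0.119% of all. Their first part, GACAAG, was in Ctsj, Ctsr, Ctsm and Cts3 and in 13.6% of all windows.

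Other genes of the placenta were not generally higher. Of 45 trophoblast genes 37 were measured, and 2 of them rose while 35 did not pass (limma), where 4.12% of all probe sets were called higher. An unadjusted limma p under 0.05 was reached by 3, but the share of all probe sets that reached it was not computed. Their median log2 difference was -0.06, against -0.01 over all probe sets. The 2 that rose were Peg10, an imprinted gene of retroviral origin that the placenta needs (10.11 in EVI1 arrays and 8.21 in EGFP arrays, 1.91 ± 0.15, limma adjusted p = 0.00232), and the keratin Krt18 (8.68 and 7.62, 1.06 ± 0.22, adjusted p = 0.0373). Both are expressed outside the placenta as well. The call of Krt18 was lost without EVI1 replicate 1, 2 or 3, or EGFP replicate 1 or 3. The keratin Krt19 (0.59 ± 0.18, adjusted p = 0.115, and 0.0453 with 1 probe set per gene) and the pregnancy-specific glycoprotein gene Psg17 (-0.48 ± 0.25, adjusted p = 0.350) did not pass in the fit of all probe sets. With 1 probe set per gene, 3 trophoblast genes rose, where 9.06% of genes did.

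The 18 measured genes of the placental prolactin family, hormones of the trophoblast, showed no rise. None passed by limma, none had an unadjusted p under 0.05, and none passed with 1 probe set per gene. Their log2 differences lay between -0.21 and 0.14, 13 below 0 and 5 above, and no mean exceeded 6.31 in EVI1 arrays or 6.46 in EGFP arrays. Of 7 defining trophoblast markers 4 were measured. Tpbpa averaged 4.50 in EVI1 arrays and 4.69 in EGFP arrays, the placental gene Plac1 6.41 and 6.14, and the syncytins Syna 7.59 and 7.49 and Synb 7.06 and 7.02. None of these 4 passed, and their mean log2 level per array ran from 6.36 to 6.45 in EVI1 arrays and from 6.32 to 6.35 in EGFP arrays.

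Markers of other cells moved with the groups beside the cathepsins. The 8 progenitor markers had a mean level per array of 9.74 to 9.89 in EVI1 arrays and 10.6 to 10.7 in EGFP arrays. Of them 2 rose (limma), Ptprc (log2 difference 0.76) and Spi1 (0.73), and 4 fell, Cd34 (-2.45), Mpo (-2.55), Myb (-1.61) and Runx1 (-0.81). Kit (-0.61) and Gata2 (-0.08) did not pass. Over all probe sets 4.12% were called higher and 4.38% lower. Epcam, an epithelial adhesion molecule, averaged 9.57 in EVI1 arrays and 6.37 in EGFP arrays, and Cdh5, the endothelial cadherin, 9.11 and 6.49 (log2 differences 3.19 and 2.61, limma adjusted p = 0.00209 and 0.00190). The 3 epithelial markers had a mean level per array of 8.73 to 9.06 in EVI1 arrays and 7.34 to 7.62 in EGFP arrays. Of these, Epcam and Krt18 (1.06) passed, while Krt8 did not (0.14, limma adjusted p = 0.540). The 5 markers of endothelium and stroma had 8.13 to 8.32 in EVI1 arrays and 7.61 to 7.78 in EGFP arrays, with Cdh5 the only one that passed. The 4 macrophage markers had 10.08 to 10.77 in EVI1 arrays and 10.04 to 10.67 in EGFP arrays, with Cd68 (1.16, adjusted p = 0.0228) and Mrc1 (0.99, 0.0680) higher and Csf1r (-1.16, 0.0690) and Adgre1 (-1.08, 0.192) lower, of which Cd68 alone passed. The 3 mast cell markers fell, with 10.1 to 10.7 in EVI1 arrays and 11.9 to 12.1 in EGFP arrays. The measured markers of T cells (2) and B cells (2) did not pass. The part of these cells in the cathepsin differences was not tested.

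Cathepsins outside the cluster differed by less than Ctsj and Ctsr, and 3 of them, Ctsg, Ctsl and Ctso, by more than Cts6 in size. Of 14 genes 6 rose, 1 fell and 7 did not pass, where 8.50% of all probe sets passed, and the median log2 difference was 0.64, against -0.01 over all probe sets. Ctsl, the lysosomal cathepsin L and nearest relative of the placental enzymes outside their cluster, read 12.34, 12.81 and 12.74 in EVI1 arrays, against 10.26, 10.85 and 9.79 in EGFP arrays. It rose by 2.33 ± 0.28 (log2, SE), or 5.02-fold (limma adjusted p = 0.00687), with no overlap. Ctso, cathepsin O, read 9.90, 10.11 and 10.16 in EVI1 arrays, against 8.23, 8.57 and 7.94 in EGFP arrays, and rose by 1.81 ± 0.18 (adjusted p = 0.00417).

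Ctss, cathepsin S of antigen presentation (1.00 ± 0.15), Ctsh, an aminopeptidase (0.97 ± 0.17), Ctsz, a carboxypeptidase (0.88 ± 0.14), and Ctsf, cathepsin F (0.57 ± 0.13, adjusted p = 0.0490), rose as well. Ctsf did not pass with a replicate block (adjusted p = 0.0589) or without any single array. Ctsg, the serine protease cathepsin G of neutrophil granules, read 9.62, 10.43 and 9.74 in EVI1 arrays, against 12.24, 12.76 and 12.45 in EGFP arrays, and fell by 2.55 ± 0.25 (adjusted p = 0.00390). Cathepsins D (Ctsd, -0.01 ± 0.11) and C (Ctsc, 0.03 ± 0.15), bright on all arrays, did not pass. Cathepsin B (Ctsb, 1.13 ± 0.29, limma adjusted p = 0.0699) did not pass either, although its groups did not overlap. Of all 14, 10 were higher on every EVI1 array than on every EGFP array and 1 was lower, where 12.7% and 14.1% of all probe sets were. Ctss did not pass without EVI1 replicate 3, Ctsz without EVI1 replicate 1 or 3, and Ctsh without any single array except EGFP replicate 2. Without EVI1 replicate 1, 3 of the 14 rose, without EVI1 replicate 3, 2 rose, and without EVI1 replicate 2 or EGFP replicate 1 or 3, 4 rose. With 1 probe set per gene 9 rose, where 9.06% of all genes did. Ctsl, Ctso and Ctsg passed in every alternative run.

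Inhibitors of these proteases went both ways. Of 32 genes 24 were measured, of which 4 rose, 2 fell and 18 did not pass, with a median of -0.01. Over all probe sets 8.50% passed, and 18.2% with 1 probe set per gene. Cst3, the secreted cystatin C (0.89 ± 0.18, limma adjusted p = 0.0321), Cstb, the cytosolic stefin B (0.75 ± 0.15, 0.0297), Csta2 of the stefin A family (1.00 ± 0.22, 0.0422) and the serpin Serpinb6a (2.17 ± 0.29, 0.00899) rose. Cst7, cystatin F of immune cell lysosomes (-1.66 ± 0.19, 0.00587), and Serpinb1a, which inhibits neutrophil serine proteases (-2.59 ± 0.22, 0.00286), fell. Cst3 did not pass with a replicate block (adjusted p = 0.0637). Of the inhibitors that rose, none passed without EVI1 replicate 3, 1 passed without EVI1 replicate 1 or 2 or EGFP replicate 3, and 2 without EGFP replicate 1. The probe sets shared among stefin A genes had log2 differences of -1.92 ± 0.70 (Cstdc6, Cstdc5 and Stfa1) and -1.66 ± 0.49 (Stfa2l1 and Stfa2), which did not pass (adjusted p = 0.173 and 0.100).

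**Figure D4:**
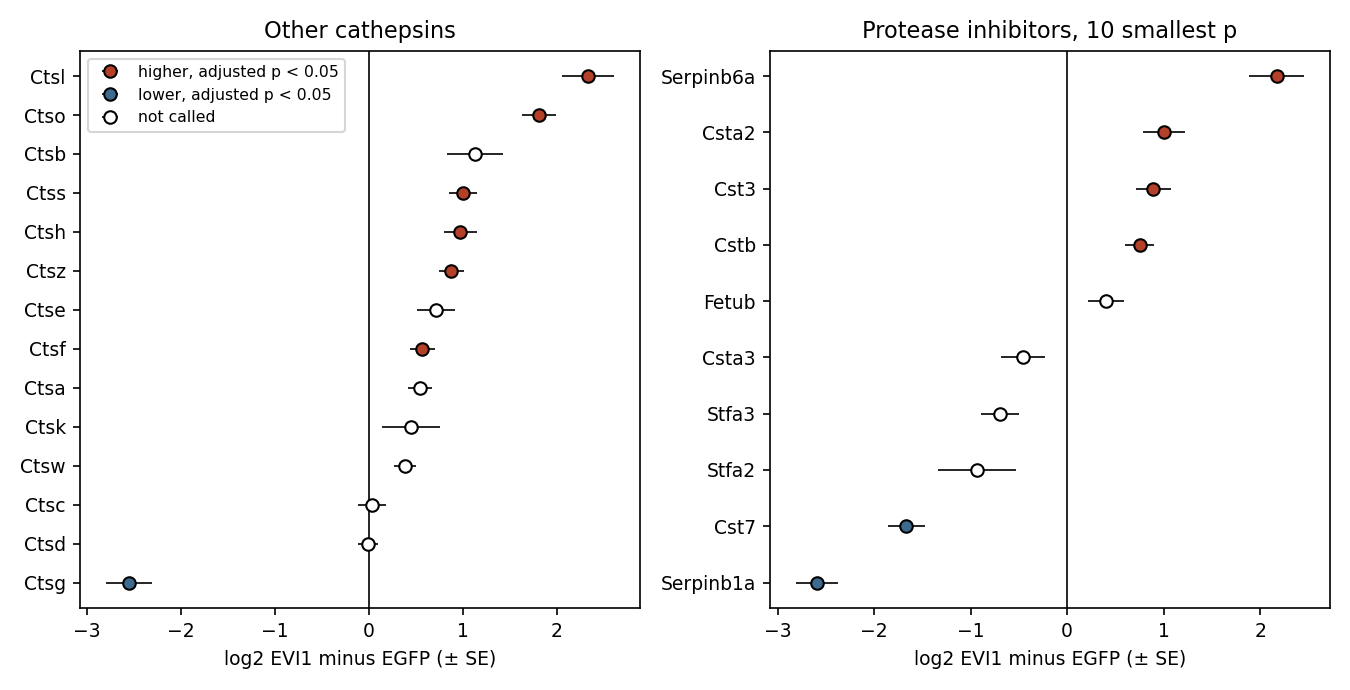
Log2 difference EVI1 minus EGFP with its SE (n = 3 arrays each) of the 14 cathepsins outside the placental cluster (left) and of the 10 inhibitors with the smallest p (right), filled where the limma adjusted p is under 0.05. Ctsl (2.33) and Ctso (1.81) lead the cathepsins that rose, and Ctsg (-2.55) and Serpinb1a (-2.59) are the lowest points.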

How the data were processed

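The deposited values are log2 intensities of single-colour Affymetrix Mouse Gene ST arrays, which the authors deposited after RMA (background correction, quantile normalisation and probe summary), per the submitters' processing notes. Its version, the genome build and detection calls are not given there. RMA hides changes in total RNA per cell, and the number of arrays limits the precision.

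Values were used unscaled. Of 34760 probe sets, 21640 carry 1 symbol, 1321 several, and 11799 are unnamed here. All probe sets were fitted together with limma 3.58.1 in R 4.3.3 (EVI1 minus EGFP, two-sided moderated test, Benjamini-Hochberg over 34760). Every SE is from that fit. Listed genes use their brightest probe set with 1 symbol. In simulated data with 34760 probe sets, 100 were changed 2-fold and 100 changed 4-fold, and 36% and 84% of these were recovered. Far fewer probe sets changed there than passed in these data, so these shares do not measure the power of this comparison.

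Members and lists were chosen with earlier results of these data known. Named genes were the members, cluster neighbours, Mecom, up to 4 genes per list with the smallest p, those that changed where 5 or fewer, the nearest flanking genes and the 5 nearest patterns; Ctsh, Ctsz, Ctsf, Ctsd, Ctsc, Ctsb, Cst3, Csta2, the shared stefin A probe sets and single cell type markers were named after their values were seen. Flanking order is from RefSeq (GRCm38.p6), as are the windows, aligned globally with free end gaps (Biopython 1.88).

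Deviations of same-numbered arrays from their group means correlated across probe sets at 0.370, 0.192 and 0.119. Correlations between arrays of different numbers were not computed, and the labels do not say that the replicate numbers pair the arrays. The main fit therefore left the arrays unpaired, and a replicate block was run as an alternative.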

Additional observations from a re-analysis of the deposited data

How the results depend on the processing

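Alternatives left out each array, added a replicate block, repeated quantile normalisation, used trended robust variance or array weights, removed dim probe sets, or used 1 probe set per gene. Over them the log2 difference of Ctsj ran from 5.46 to 5.77, of Ctsr from 4.61 to 4.91 and of Cts6 from 1.64 to 1.81. The filters on dim probe sets removed all members except Ctsj and Ctsr, so the others have no value there, and Ctsm and Cts3 have none with 1 probe set per gene.

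Among the runs that left out 1 array, leaving out EGFP replicate 2 gave the highest counts of probe sets called, above those with all arrays. Leaving out any other array gave fewer. Without single arrays the probe sets called ran from 522 to 1469 higher and from 472 to 1691 lower, the cathepsins from 2 to 8 higher, the inhibitors from 0 to 3 higher and 2 to 4 lower, the trophoblast genes from 1 to 2 higher, and the flanking genes from 0 to 2 higher and 0 to 0 lower. With 1 probe set per gene 2 flanking genes were lower, and with a replicate block 0 were, while 4 were higher. Among the named list genes fitted singly under each alternative, which leave out the marker genes, Ctsb, Ctsc, Ctsd, 4930486L24Rik and the shared stefin A probe sets, the block ended the calls of Ctsf, Cst3 and Golm1 and changed no other. Array weights ended that of Ctsf (adjusted p = 0.0557) and quantile normalisation that of Tut7 (0.0713).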
